A study of Canis lupus familiaris with 186 samples.

Results

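Collagen genes were taken from the gene table of the DOG2 dataset as the 39 rows named for a collagen chain (COL, a type number, A and a chain number) other than COL2A1, COL9A1, COL10A1 and COL11A2, the 4 chains left out as the cartilage set. The table holds 43 such chains among 37952 rows. DOG2 is mRNA sequencing of primary appendicular osteosarcomas of pet dogs, taken before treatment, with 1 library per dog and 93 dogs in each of the trials COTC021 and COTC022. All 186 dogs carry the same labels for tissue (primary osteosarcoma) and cell type (tumor), and the labels give no other groups, no treatment and no untreated control tissue. Libraries held between 6587637 and 27420866 counts (median 10797172). For 50 libraries the deposited name repeats its separator character, and their median depth was 19440471 counts against 9851691 in the other 136. Clusters by the GS-1 signature, disease-free interval (DFI) and overall survival were not analysed here, since the sample labels do not give them.

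Collagens are built from 3 chains wound into a triple helix, and the chains are folded and hydroxylated in the endoplasmic reticulum, cut outside the cell and crosslinked. Fibrillar chains such as COL1A1 and COL1A2 form the organic matrix of bone, which osteoblasts secrete and which tumor cells of osteosarcoma lay down as osteoid. Network chains such as COL4A1 and COL4A2 line vessels as basement membrane, beaded filament chains such as COL6A1 to COL6A3 link cells to the matrix, and FACIT chains sit on the surface of fibrils.

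The labelled tissue was checked against defining genes of bone-forming cells. At least 10 counts of RUNX2 and ALPL were found in all 186 libraries, of IBSP in 182, and of SP7 and BGLAP in 177. The skeletal muscle genes ACTA1 and CKM ranged from 0 to 24577 and from 0 to 20347 CPM (counts scaled to a fixed library size), and the keratinocyte gene KRT5 had 0 counts in 160 dogs. In bulk tissue, fewer cells of a type and less RNA per cell cannot be told apart, and this holds for every level below.

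The 39 chains together took 6.44% of the counts of the median library. The share ranged from 0.424% to 23.1%. It was above 1% in 184 dogs, above 10% in 36 and above 20% in 6. COL1A1, COL1A2 and COL3A1, the major fibrillar chains of bone and soft matrix, held 79.8% of these collagen counts in the median dog and between 22.2% and 91.6% over all dogs. COL1A1 or COL1A2 was the row with most counts of all 37952 in 116 dogs. COL3A1 was among the 10 rows with most counts in 113 dogs, against 174 for COL1A1 and 181 for COL1A2. The 6 basement membrane chains took between 0.021% and 0.772%, with a median of 0.184%. The median share of the 39 chains was 6.29% in COTC021 and 6.56% in COTC022, and the ranges overlapped.

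**Figure D1:**
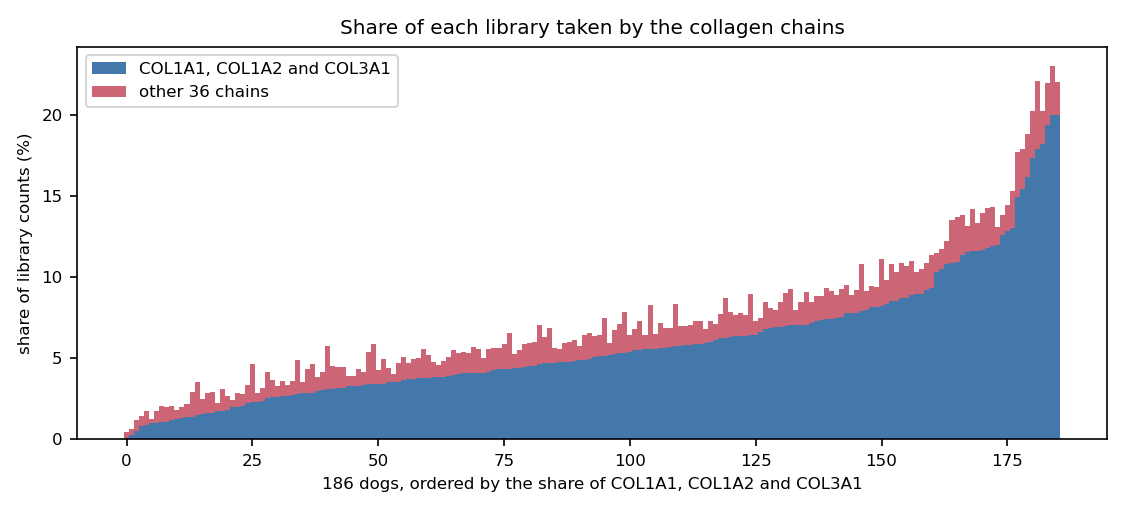
Share of each library's counts (%, y axis) taken by COL1A1, COL1A2 and COL3A1 (blue) and by the other 36 chains (red), stacked, with the 186 dogs ordered along the x axis by the blue share. The blue share runs from 0.0941% to 20.0%, and the median library has 6.44% in both colors together.

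Levels are given as TMM-scaled CPM, which are library-size-scaled counts corrected for composition. They are not divided by transcript length, so they are compared between dogs and not between genes. COL1A1 (chromosome 9, 26134702 to 26150789, build GSD_1.0) had a lowest, median and highest level of 345, 20237 and 148423 CPM. COL1A2 (chromosome 14, 19843097 to 19878889) ran from 421 through a median of 23555 to 106947 CPM. Both chains of type I collagen were thus abundant in most tumors and low in a few. COL3A1 (chromosome 36, 30884313 to 30921873), the chain of type III collagen of vessels and soft tissue, reached from 3.12 through 5290 to 64180 CPM. Its 10th and 90th percentiles lay 46.3-fold apart, against 8.80-fold for COL1A1 and 6.01-fold for COL1A2.

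Other fibrillar chains fell on both sides of this spread. COL5A1 and COL5A2, which start type I fibrils, were found in every dog with medians of 1483 and 3911 CPM, and their 10th and 90th percentiles were 5.20-fold and 4.34-fold apart. COL11A1, a cartilage and tumor stroma chain, ranged from 1.10 through 239 to 21983 CPM, with percentiles 80.9-fold apart. COL24A1, a minor fibrillar chain of forming bone, ranged from 0 in 1 dog through 51.1 to 348 CPM. COL27A1, known from cartilage, stayed between 2.79 and 446 CPM.

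The main basement membrane chains had 10th and 90th percentiles 5.35-fold apart for COL4A1 and 4.82-fold for COL4A2. COL4A1 (chromosome 22, 58660825 to 58801735) ranged from 140 through 1147 to 5604 CPM, and COL4A2 (chromosome 22, 58801350 to 58971538) from 67.7 through 644 to 3399 CPM. In contrast, COL4A5 reached 10 counts in 114 dogs, with a median of 17.5 counts. COL15A1 and COL18A1, the multiplexins that border basement membranes, had medians of 325 and 70.1 CPM and were found in all dogs. Of the beaded filament chains, COL6A1, COL6A2 and COL6A3 had medians of 1068, 392 and 494 CPM.

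Several FACIT and transmembrane chains varied widely. COL22A1, a FACIT chain of tissue junctions, ranged from 0 in 6 dogs through 18.1 to 799 CPM, and its percentiles were 184-fold apart. COL14A1, which binds mature fibrils, ranged from 0.170 through 24.1 to 2112 CPM. COL12A1, its relative in tissues under load, was found in every dog with a median of 1149 CPM. COL9A2, a chain of type IX collagen that the rule keeps although COL9A1 is left out, ranged from 0.262 through 26.9 to 2308 CPM. COL13A1, a transmembrane chain at cell contacts, ranged from 0.541 through 50.5 to 263 CPM. COL26A1 was at 0 in 19 dogs and reached 734 CPM. Over the 30 chains kept by the low-count filter, the median SD between dogs was 1.18 on the log2(CPM + 2) scale, against 0.525 over all 13422 genes kept.

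**Figure D2:**
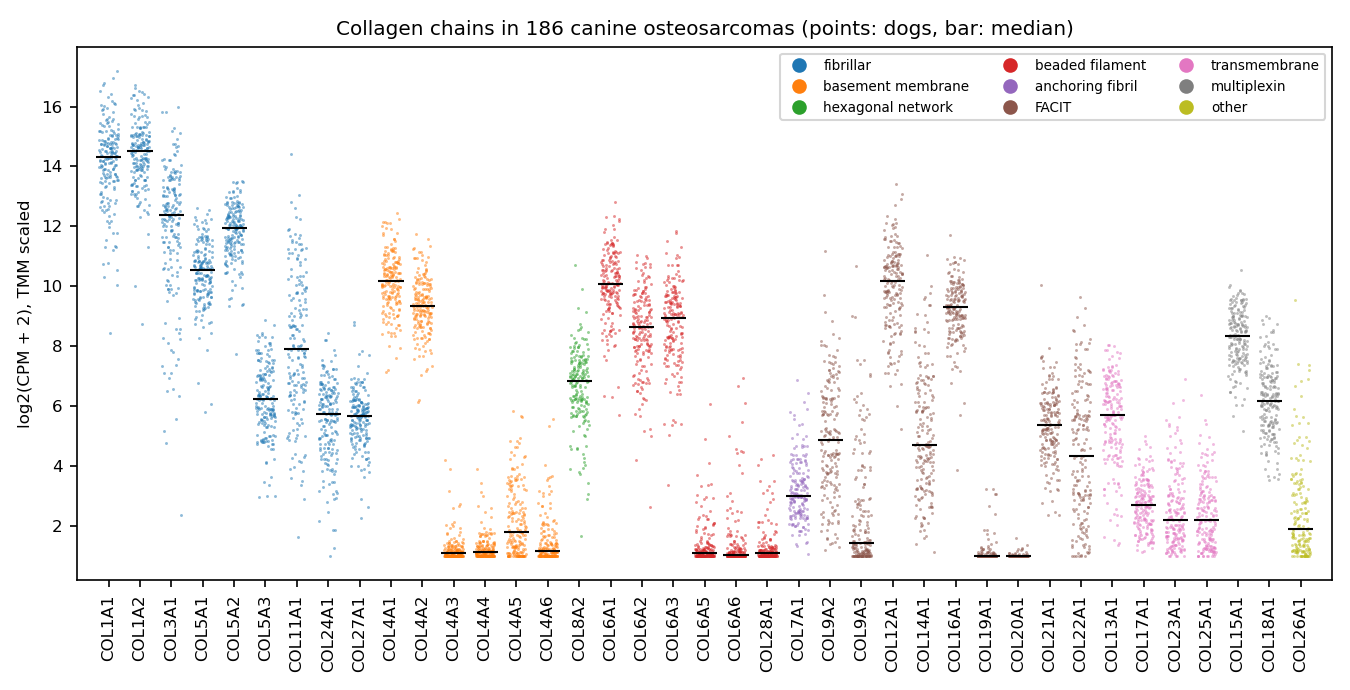
Level of each of the 39 chains as log2(CPM + 2), where 2 CPM are added so that a level of 0 plots at 1 (y axis), with 1 point per dog, colors for the structural class and a bar at the median of 186 dogs. COL1A1 and COL1A2 lie highest, while 9 chains that did not pass the filter, such as COL19A1 and COL20A1, sit at or near 1 in most dogs.

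These 9 chains were COL4A3, COL4A4, COL4A6, COL6A5, COL6A6, COL9A3, COL19A1, COL20A1 and COL28A1. COL20A1 had 0 counts in 164 dogs and COL19A1 in 142. COL9A3 reached 10 counts in 94 dogs and 1637 CPM at most, with 0 counts in 40. COL6A6, a beaded filament chain, was at 0 in 89 dogs and at 120 CPM in the highest. The others had medians of 1 to 2.5 counts. No row named COL8A1 was among the 43 collagen rows, so this chain has no values here.

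Chains fixed as pairs, which share a trimer, lie side by side or are related, were compared over the 186 dogs with a permutation test (100000 resamples, two-sided, adjusted over 11 pairs). COL4A1 and COL4A2 rose and fell together most closely, with Spearman's rho of 0.974 and Pearson's r of 0.979, and the log2 ratio of the chains had an SD of 0.203 between dogs. Each was the closest of 13421 other genes to its partner. The loci of these chains overlap by 386 bases, and how a read there was assigned is not given in the sources used here. COL6A1 and COL6A2, whose loci lie 97455 bases apart on chromosome 31, had rho of 0.915 and r of 0.922, and were again first for each other. COL1A1 and COL1A2 lie on separate chromosomes and had rho of 0.817 and r of 0.828, also first for each other. Without the 2 dogs farthest from the median of COL1A1, r was 0.800. For these 3 pairs, p was 1e-05 for both measures, the smallest that 100000 resamples can give.

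COL5A1 and COL5A2 had rho of 0.623 and r of 0.698. COL5A3, the third chain of type V collagen, followed COL5A1 less closely, with rho of 0.253, r of 0.304 and adjusted p = 0.00049 for rho. In the 50 libraries with a repeated separator this rho was 0.0720, with adjusted p = 0.619 by the same permutation test, and in COTC022 it was 0.196, with adjusted p = 0.0596. COL6A3 had rho of 0.554 with COL6A1 and 0.566 with COL6A2. COL3A1 had rho of 0.593 with COL1A1 and 0.451 with COL5A2, its neighbor 12502 bases away. COL11A1 had rho of 0.371 with COL5A2, and COL12A1 had rho of 0.345 with COL14A1. The last relation was 0.0354 (permutation p = 0.63) after the 5 marker scores defined below and the trial had been regressed out. Apart from COL5A1 with COL5A3 in these 2 subsets, the pairs kept their call within both trials and both groups of libraries.

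A few dogs departed from a pair. In 1 dog COL1A1 was the sixth lowest, at 1737 CPM from 21317 counts, while COL1A2 was the third highest, at 94390 CPM from 1158347 counts. Its log2 ratio of COL1A2 over COL1A1 was 5.76, against a median of 0.13 over all dogs, and the next dog lay 2.22 from the median. Without this dog, the pair had Spearman's rho of 0.845. In another dog COL3A1 had 55 counts, the lowest of all, beside 779327 counts of COL1A1. The cause was not tested.

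**Figure D3:**
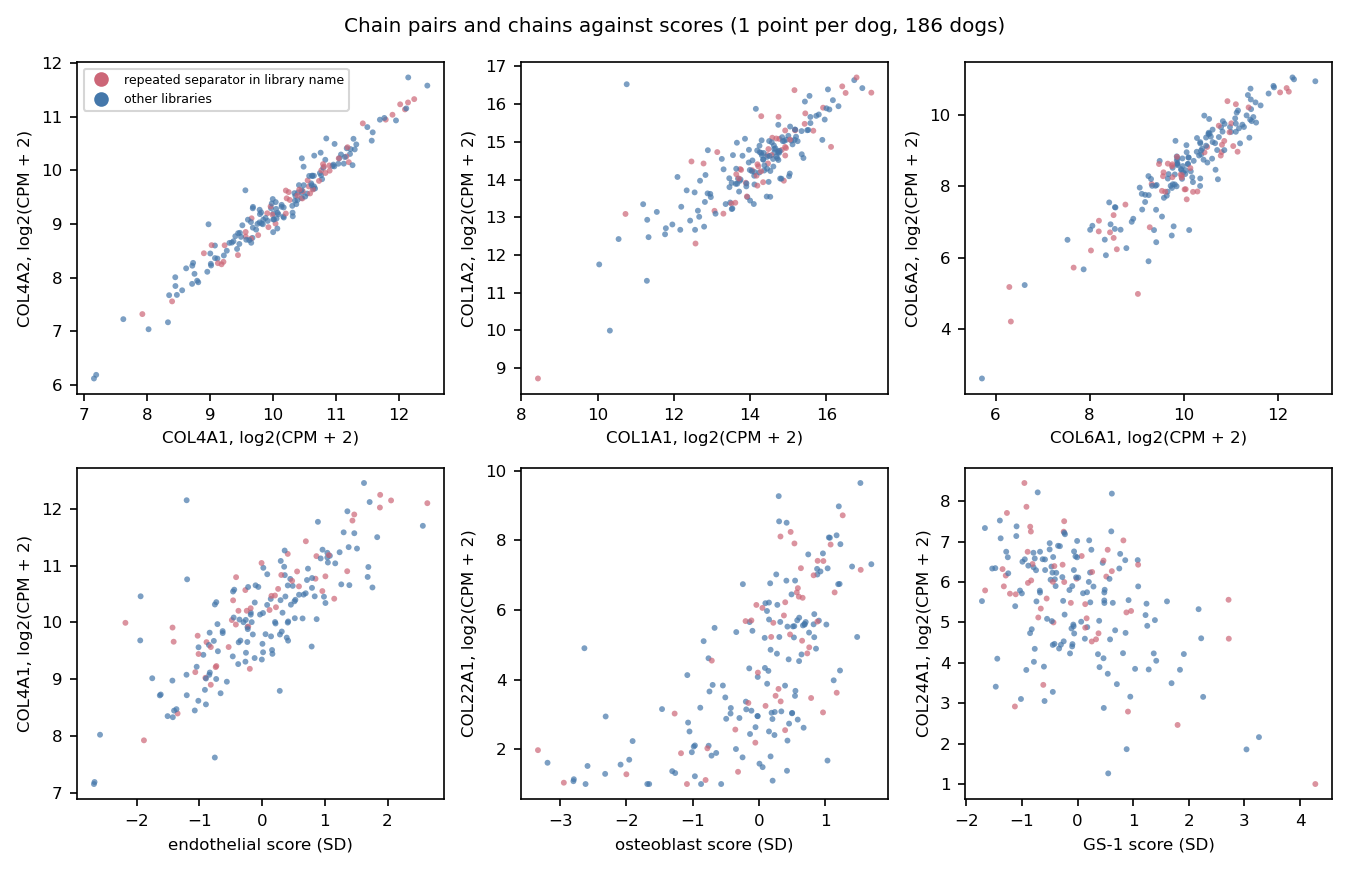
Upper panels plot COL4A2 against COL4A1, COL1A2 against COL1A1 and COL6A2 against COL6A1, all as log2(CPM + 2), and lower panels plot COL4A1 against the endothelial score, COL22A1 against the osteoblast score and COL24A1 against the GS-1 score (in SD), with 1 point per dog, in red for the 50 libraries with a repeated separator in the name. COL4A1 and COL4A2 form the narrowest band (rho 0.974), and 1 dog lies far above the band of COL1A1 and COL1A2.

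Average linkage on 1 minus rho, with a distance of 0.5, put 20 of the 30 chains into 6 co-expression groups. The grouping was made from the levels and is a description with no test. The type I and V chains COL1A1, COL1A2, COL5A1 and COL5A2 grouped with COL16A1, with a median rho of 0.596. COL4A1 and COL4A2 grouped with COL15A1 and COL5A3, with a median rho of 0.673. COL6A1 and COL6A2 grouped with COL18A1, although the closest partner of COL18A1 was COL4A2 (rho 0.640). These 3 chains lie on chromosome 31, COL18A1 at 38893993 to 38935752, COL6A1 from 39282131 and COL6A2 up to 39429683. The part of this position in the group was not tested. With Pearson's r, within COTC022 and within each group of libraries, COL18A1 grouped with COL4A1, COL4A2 and COL15A1 and with neither COL6A1 nor COL6A2. Within COTC021, COL4A1, COL4A2, COL15A1, COL18A1, COL6A1 and COL6A2 made 1 group. COL3A1, COL6A3 and COL14A1 made a group with a median rho of 0.613, and COL11A1 and COL12A1 a pair with rho of 0.578. COL13A1, COL22A1 and COL24A1, from 3 structural classes, had a median rho of 0.540. At this distance, 0 of the 6 groups held chains of 1 structural class alone. This depended on the cut, the linkage, the correlation measure and the dogs used. At a distance of 0.4, 9 of the 26 pairs of chains that shared a group still did. There the fibrillar chains COL1A1, COL1A2 and COL5A1 made a group of 1 class, as did COL6A1 and COL6A2, while the other groups mixed classes. With complete linkage, COL1A1, COL1A2, COL5A1 and COL5A2 made such a group, as did COL6A1, COL6A2 and COL6A3, and the other groups were mixed.

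The other 10 chains were in no group. COL7A1, the chain of the anchoring fibrils of skin, had its closest partner at rho of 0.190 and COL4A5 at 0.233. Over all 435 pairs of chains the median rho was 0.169, and 39 pairs were above 0.5. The lowest value was -0.336, between COL15A1 and COL25A1. With the chains of the cartilage set, COL9A2 had rho of 0.631 (COL2A1), 0.655 (COL9A1) and 0.602 (COL11A2), and COL11A1 had 0.522, 0.547 and 0.493. No other chain passed 0.5 with any of these, and COL4A1 lay between -0.0964 and 0.0048.

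**Figure D4:**
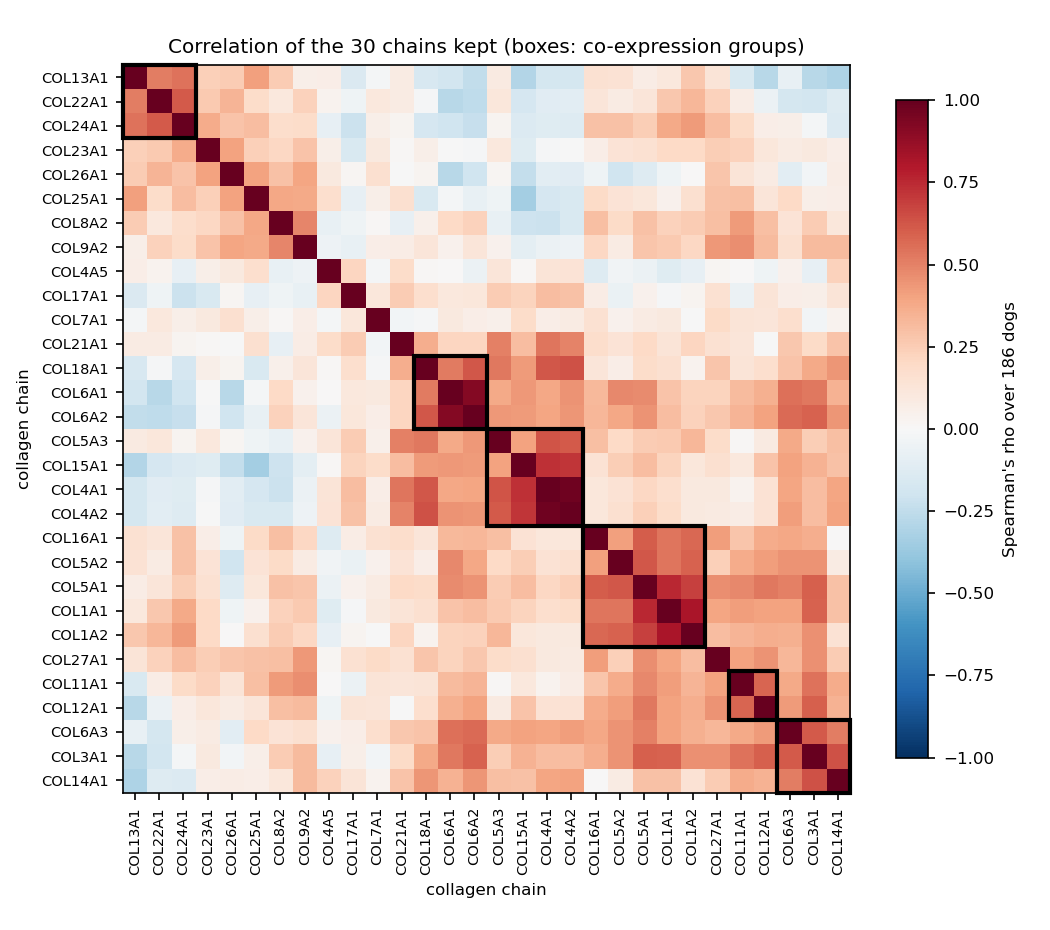
Spearman's rho over 186 dogs between each pair of the 30 chains kept (color scale from -1 in blue to 1 in red), with boxes around the 6 co-expression groups. The block of COL1A1, COL1A2, COL5A1, COL5A2 and COL16A1 and that of COL4A1, COL4A2, COL15A1 and COL5A3 share only pale values, from 0.0945 to 0.332.

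Among genes that are no collagen, the closest to each chain by rho differed between these groups. SPARC, a collagen-binding protein of bone matrix, was first for COL1A1 (rho 0.707), COL1A2 (0.755) and COL5A2 (0.617), and CREB3L1, a secretory pathway factor of osteoblasts, was among the first 3 for both type I chains. COL4A1 was closest to PCDH1 (0.820), PECAM1 (0.812) and CDH5 (0.801), of which the last 2 are endothelial junction genes. COL18A1 was closest to SOX18 (0.719), an endothelial transcription factor. COL22A1 was closest to SLC36A2 (0.759), IFITM5 (0.757) and IBSP (0.739), of which IFITM5 and IBSP are genes of mineralizing osteoblasts. COL3A1 was closest to THBS2 (0.761), and COL14A1 to PODN (0.733). COL9A2 and COL11A1 both had HAPLN1, a cartilage link protein, among their first 3, with rho of 0.599 and 0.737. PECAM1, CDH5, IBSP and HAPLN1 are also members of the marker scores used next. These correlations are a description over 186 dogs, and all genes share each library's depth and scaling.

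Each chain was then fitted against 5 scores, each the mean z-score of a gene list that holds no collagen: GS-1 (27 genes, many of them leukocyte genes), osteoblast (11 of 12 genes kept), endothelial (12), mural cells of vessels (10) and cartilage (7 of 10 kept). The GS-1 list is a signature from earlier work that the study applied to these dogs, and the others were drawn up from textbook markers. A slope is the log2 change in level per SD of the score, with the trial in the model, from limma-voom across all 13422 genes, and p-values were adjusted by Benjamini-Hochberg over all of them. Scores overlapped in part: the endothelial and mural scores had r of 0.619, and GS-1 and osteoblast r of -0.391.

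With the osteoblast score, 18 of 30 chains changed, where 39% of all genes did. Of the chains 8 rose and 10 fell, against 18.8% and 20.2% of all genes. A slope of at least 0.5 upward was reached by 5 chains, against 3.26% of all genes, and one of -0.5 or below by 2 chains, against 2.73%. COL22A1 had the steepest slope, 2.36 ± 0.236 (SE, n = 186; adjusted p = 6e-17), which is a 5.14-fold higher level per SD. With edgeR the slope was 1.70 and with DESeq2 1.68. COL13A1 rose by 1.29 ± 0.092 (adjusted p = 1.1e-27) and COL24A1 by 0.94 ± 0.104 (adjusted p = 1.6e-14). The slope of COL22A1 was 2.41 in COTC021, 2.32 in COTC022, 2.48 in the libraries with a repeated separator and 2.31 in the others. COL25A1, a transmembrane chain known from neurons, rose by 0.73, and COL26A1 by 0.70. In limma-voom COL25A1 was not called in COTC022 alone (adjusted p = 0.085) or in the libraries with a repeated separator (adjusted p = 0.13). COL26A1 was called in neither trial alone, in neither group of libraries and not with all 5 scores in 1 fit. COL1A2 rose by 0.31 ± 0.078 (adjusted p = 0.00067), or by 0.18 with edgeR and with DESeq2 (adjusted p = 0.030 in both). Within COTC021 the slope of COL1A2 was 0.17 (limma-voom adjusted p = 0.27). COL1A1 had a slope of 0.15 ± 0.099 (adjusted p = 0.23), and -0.0066 within COTC021.

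Chains of several classes fell with the osteoblast score. COL14A1 fell by 0.92 ± 0.150 on the log2 scale (adjusted p = 1.2e-07), and COL3A1 fell by 0.77 ± 0.164 (adjusted p = 4.4e-05). COL6A2 fell by 0.41, COL15A1 fell by 0.31 and COL12A1 fell by 0.29. COL12A1 was called in neither trial alone and not with all 5 scores in 1 fit. Its slope was -0.060 in the libraries with a repeated separator (limma-voom adjusted p = 0.88). All 3 beaded filament chains kept, COL6A1, COL6A2 and COL6A3, were lower, as were COL4A1 (-0.27) and COL4A2 (-0.27). In COTC022 alone none of these 3 beaded filament chains was called in limma-voom (adjusted p = 0.55, 0.21 and 0.41). Nor were they in the libraries with a repeated separator, where their slopes were -0.069, -0.31 and 0.021. Slopes of COL3A1 were -0.73 and -0.82 in the trials COTC021 and COTC022.

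The endothelial score went with 15 of 30 chains, 12 higher and 3 lower, where 38.1% of all genes were called, 18.9% higher and 19.2% lower. Of these, 8 chains had a slope of 0.5 or more, against 3.42% of all genes, and 0 had -0.5 or below, against 0.38%. COL4A1 rose by 0.78 ± 0.044 (adjusted p = 2e-39) and COL4A2 by 0.73 ± 0.047 (adjusted p = 1.2e-33), with slopes between 0.65 and 0.87 within both trials and both groups of libraries. COL18A1 rose by 0.82 ± 0.070, and COL21A1, a FACIT chain of vessel walls, by 0.79 ± 0.071. COL14A1 rose by 0.90 ± 0.162 (adjusted p = 1.8e-06), but its slope was 0.15 (adjusted p = 0.71) with all 5 scores in 1 limma-voom fit, where COL4A1 had 0.67. COL25A1 fell by 0.49, COL24A1 fell by 0.35 and COL8A2, a hexagonal network chain, fell by 0.24. With all 5 scores in 1 limma-voom fit these 3 calls were lost (adjusted p = 0.35, 0.14 and 0.072), and that of COL8A2 also with edgeR (adjusted p = 0.089) and DESeq2 (adjusted p = 0.055). With edgeR 10 chains rose and 3 fell, where 14.7% of all genes rose and 24.6% fell. With DESeq2 10 rose and 4 fell, where 15.7% of all genes rose and 25% fell. The endothelial score had rho of 0.355 with ACTA1 and 0.375 with CKM, and the part of muscle in these slopes was not tested. COL1A1 and COL1A2 had slopes of 0.12 (adjusted p = 0.33) and 0.06 (adjusted p = 0.62), which were -0.23 and -0.19 in the libraries with a repeated separator.

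With the mural score, built from smooth muscle and pericyte genes, 21 of 30 chains were called, against 40.1% of all genes. All 21 rose and 0 fell, against 21.2% and 18.8% of all genes, and 12 had a slope of 0.5 or more, against 3.62%, while 0 had -0.5 or below, against 0.127%. With edgeR 19 chains rose and 3 fell, where 15.3% of all genes rose and 26.7% fell. With DESeq2 19 rose and 4 fell, where 15.6% of all genes rose and 27.1% fell. Among those that fell with both tools were COL26A1 (-0.71 with DESeq2) and COL25A1 (-0.56), which had adjusted p = 0.36 and 0.65 in limma-voom. The median slope of the chains was 0.45, that of all genes -0.0023. COL14A1 rose by 1.29 ± 0.146 (adjusted p = 4.8e-14), COL3A1 by 0.97 ± 0.158 (adjusted p = 9e-08), COL18A1 by 0.71 ± 0.076 and COL6A2 by 0.71 ± 0.092. COL4A5 rose by 0.72 ± 0.158, but by 0.23 (adjusted p = 0.29) with DESeq2. COL1A1 rose by 0.51 and COL1A2 by 0.35. Among the 9 fibrillar chains 8 rose, with COL24A1 at -0.11 (adjusted p = 0.50). The mural score itself had rho of 0.388 with ACTA1 and 0.402 with CKM, and its list holds DES, which skeletal muscle also expresses. Without DES the count was 21 again, and the part of muscle in these slopes was not tested.

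With the cartilage score, from 7 genes such as ACAN and SOX9, 19 of 30 chains were called, against 22.7% of all genes. All 19 rose and 0 fell, against 11.9% and 10.9% of all genes, and 12 had a slope of 0.5 or more, against 1.73%, while 0 had -0.5 or below, against 0.44%. With edgeR and with DESeq2, 17 chains rose and 1 fell, COL26A1, with a slope of -0.71 in both (adjusted p = 0.0042 and 0.0022) against 0.04 in limma-voom. Of all genes, 10.6% rose and 15.7% fell with edgeR, and 11.9% rose and 16% fell with DESeq2. COL11A1 rose by 1.65 ± 0.148 (adjusted p = 1.8e-19), 3.14-fold per SD, and COL9A2 by 1.46 ± 0.129 (adjusted p = 4.3e-20). These are chains of the cartilage fibril. COL3A1 rose 2.46-fold per SD (adjusted p = 7e-13), or by 0.79 on the log2 scale with DESeq2. COL14A1 rose by 0.83 and COL12A1 by 0.69. COL1A1 (0.63), COL1A2 (0.43), COL5A1 (0.52) and COL27A1 (0.52) rose as well. Of the 3 basement membrane chains kept, 0 were called, with slopes between -0.04 and 0.18.

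The GS-1 score went with 15 of 30 chains, a share of 50% that lies near the 49.2% of all genes called. In direction, 13 chains fell and 2 rose, while 26.5% of all genes fell and 22.7% rose. A slope of -0.5 or below was found for 4 chains, against 1.56% of all genes, and one of 0.5 or more for 0 chains, against 5.01%. The median slope was -0.21 for the chains and -0.018 for all genes. COL25A1 fell by 0.73 ± 0.174 (adjusted p = 0.00019), COL24A1 fell by 0.64 ± 0.115 (adjusted p = 7.4e-07), COL13A1 fell by 0.56 ± 0.120 (adjusted p = 3.6e-05), COL26A1 fell by 0.55 ± 0.233 (adjusted p = 0.040) and COL8A2 fell by 0.50 ± 0.094 (adjusted p = 3.2e-06). COL26A1 had a slope of -0.38 with edgeR (adjusted p = 0.22) and with DESeq2 (adjusted p = 0.092), and it also lost its call in COTC021 and in COTC022 alone, in both groups of libraries, with all 5 scores in 1 fit and without the 2 dogs farthest from the median score. Slopes of COL24A1 were -0.72 in COTC021 and -0.57 in COTC022, and -0.64 and -0.58 in the libraries with and without a repeated separator. COL17A1, a chain of skin hemidesmosomes, rose by 0.24 ± 0.086 (adjusted p = 0.016) and COL15A1 by 0.22 ± 0.069 (adjusted p = 0.0061). COL17A1 was not called in either trial alone, in the libraries with a repeated separator or with edgeR (adjusted p = 0.0503). COL15A1 was not called in COTC021 alone or in the libraries with a repeated separator (limma-voom adjusted p = 0.22 and 0.19). With all 5 scores in 1 fit, 6 chains were called, all lower, where 35.8% of all genes were called and 18.2% were lower. They were COL1A2 and COL5A2, which were also called with GS-1 alone, and COL3A1, COL4A1, COL6A1 and COL6A3, which were not. In that fit the slope of COL24A1 was -0.23 (adjusted p = 0.061) and that of COL15A1 was -0.0037.

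Among the major fibrillar chains, COL1A1 fell with GS-1 by 0.32 ± 0.096 (adjusted p = 0.0035) and COL1A2 fell by 0.39 ± 0.076 (adjusted p = 7.5e-06). COL3A1 had a slope of -0.20 ± 0.165 (adjusted p = 0.31), which was 0.03 with edgeR and with DESeq2, and -0.40 (adjusted p = 0.024) with all 5 scores in 1 limma-voom fit. Within the groups of libraries, COL1A1 had a slope of -0.68 in the 50 libraries with a repeated separator (adjusted p = 0.00039) and -0.10 in the other 136 (adjusted p = 0.53). The test of that difference in limma-voom gave -0.60 ± 0.200, with p = 0.0029 and adjusted p = 0.35. Over the chains, 10 of 30 had an unadjusted p under 0.05 in this test, where 7.45% of all genes did, and 0 passed adjustment, as did 0.00745% of all genes. The difference of the GS-1 slope between trials gave 0 of 30 at either level in limma-voom, against 3.04% and 0% of all genes.

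The dog with the highest GS-1 score, 4.27 SD, was of COTC022 and in the libraries with a repeated separator. It had the lowest COL1A1 (345 CPM) and COL1A2 (421 CPM) of all dogs, 0 counts of COL24A1 and the lowest osteoblast score (-3.33 SD), while COL4A1 was at 1364 CPM. Without the 2 dogs farthest from the median score, 12 chains were called with GS-1, 9 lower and 3 higher, where 24.1% of all genes were lower and 20.8% higher, and COL1A1 had a slope of -0.20 (adjusted p = 0.10).

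**Figure D5:**
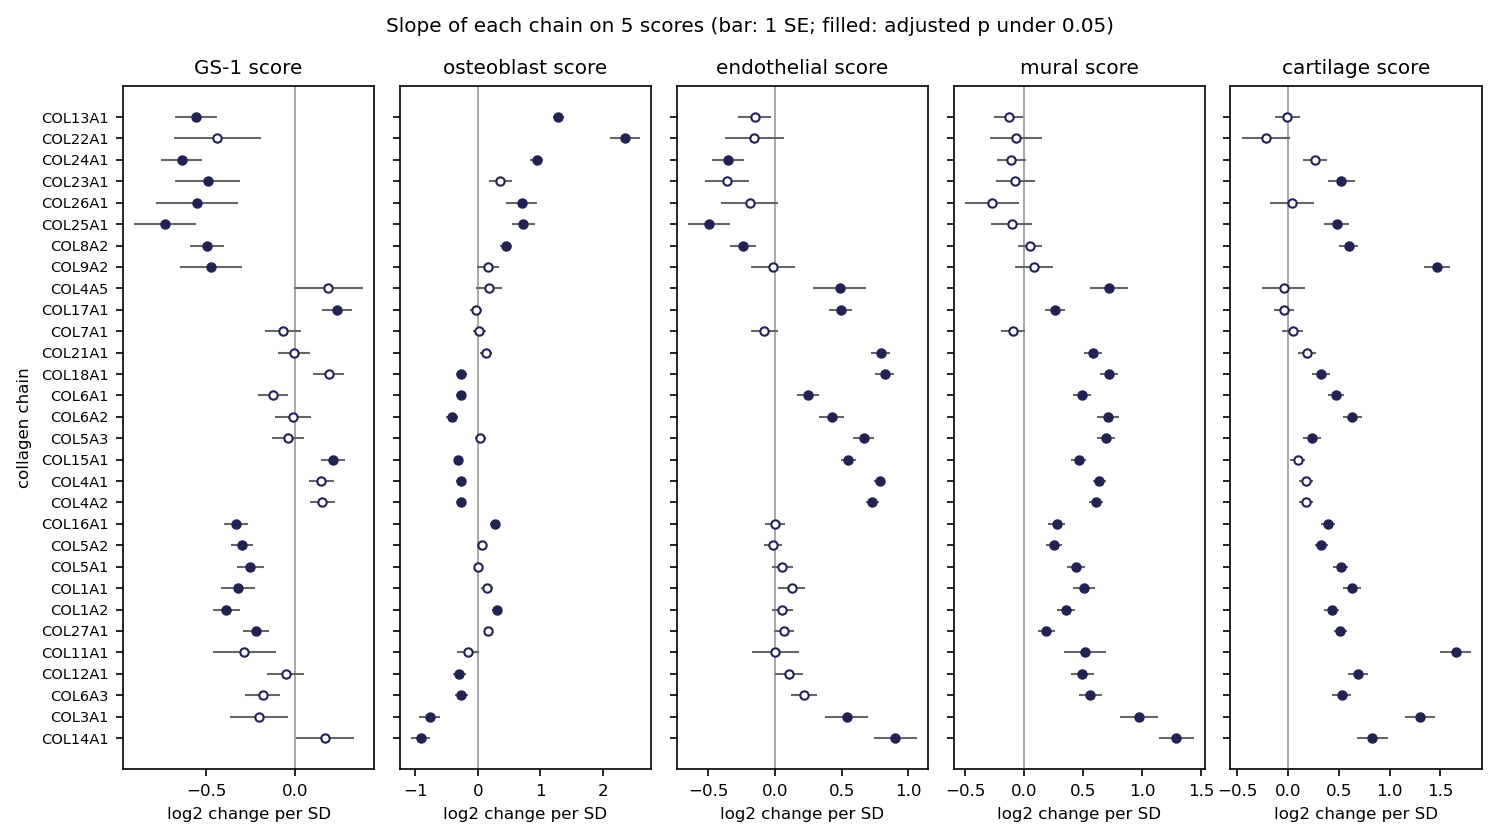
Slope of each of the 30 chains (rows, in the order of the correlation map) on the GS-1, osteoblast, endothelial, mural and cartilage scores, as log2 change per SD of the score (x axes differ in range), with bars of 1 SE and filled points where the adjusted p was under 0.05. The mural and cartilage panels hold filled points only to the right of 0, and in the GS-1 panel 13 of 15 filled points lie to the left.

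By class, 6 of 9 fibrillar chains fell with GS-1 and 0 rose, where 26.5% of all genes fell. In the 136 libraries with no repeated separator, the fibrillar chains called with GS-1 were COL5A2 (adjusted p = 0.045) and COL24A1 (adjusted p = 0.00025) in limma-voom, and with all 5 scores in 1 fit they were COL1A2, COL3A1 and COL5A2. Of 3 basement membrane chains, 0 were called with GS-1, where 49.2% of all genes were. In limma-voom 3 rose with the endothelial and mural scores, against 18.9% and 21.2% of all genes. COL4A5 rose by 0.48 with the endothelial score (limma-voom adjusted p = 0.040). Its slope was 0.13 with edgeR (adjusted p = 0.61) and with DESeq2 (adjusted p = 0.57), and -0.0004 with all 5 scores in 1 fit. Of 4 transmembrane chains, 3 fell with GS-1, and COL13A1 and COL25A1 rose with the osteoblast score. COL7A1 was called with none of the 5 scores, with slopes between -0.09 and 0.05.

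Chains below the filter were fitted among 30041 rows without it, where 28.6% of rows were called with GS-1, 35.2% with osteoblast, 22.4% with mural and 11.4% with cartilage. COL9A3 had a slope of 2.06 ± 0.097 with the cartilage score (adjusted p = 9.7e-48) and -1.08 with GS-1 (adjusted p = 0.0003). COL6A5 and COL6A6 had 0.81 and 0.99 with the mural score and -1.03 and -0.97 with osteoblast, all with adjusted p under 1e-06. COL4A6 had 1.02 with the mural score. The low counts of these chains limit the precision of such slopes.

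Genes that build and bind collagen were read from a list of 43, of which 41 were kept. Of 18 enzymes and chaperones, 12 fell and 0 rose with GS-1, where 26.5% of all genes fell and 22.7% rose. SERPINH1, the collagen chaperone HSP47, fell by 0.31 ± 0.050 (adjusted p = 3.7e-08), and FKBP10 fell by 0.37 ± 0.051 (adjusted p = 1.1e-10). With the osteoblast score 9 rose and 3 fell, against 18.8% and 20.2% of all genes, and with the cartilage score 12 rose and 0 fell, against 11.9% and 10.9%. Of 14 processing and crosslinking genes, 4 fell and 1 rose with GS-1, the last being TGM2, a transglutaminase, with 0.89 ± 0.080. PCOLCE, which speeds the cutting of procollagen, fell by 0.38. LOXL4, a crosslinking oxidase, rose by 0.81 ± 0.132 with the osteoblast score (adjusted p = 7.4e-08), while LOX fell by 0.36.

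Of 9 collagen receptors, 2 rose and 4 fell with GS-1, where 49.2% of all genes were called, 22.7% higher and 26.5% lower. LAIR1, an inhibitory collagen receptor of leukocytes, rose by 1.10 ± 0.039 (adjusted p = 2.4e-67), and ITGA1 rose by 0.26. ITGA10 fell by 0.59 and MRC2, which takes up collagen, fell by 0.44. Both rose with the osteoblast score, ITGA10 by 0.79 ± 0.073 and MRC2 by 0.70 ± 0.055. ITGA1 rose by 0.53 with the endothelial and by 0.54 with the mural score.

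Between the trials, 0 of 30 chains differed at an adjusted p under 0.05 in limma-voom, edgeR or DESeq2, and 0 at an unadjusted p under 0.05 in limma-voom, where 0.0149% and 9.92% of all genes did in limma-voom. With edgeR 0.961% and with DESeq2 0.529% of all genes passed adjustment. The difference of COTC022 from COTC021 ranged from -0.56 ± 0.410 for COL4A5 to 0.63 for COL26A1 on the log2 scale. Median levels of COL1A1 were 20062 and 20890 CPM in the trials COTC021 and COTC022, those of COL1A2 23276 and 23911 CPM, and those of COL4A1 1177 and 1074 CPM, with ranges that overlapped. On simulated counts of 13422 genes, the trial comparison called 52 of 100 genes changed by 0.5 and 100 of 100 changed by 1. The median SD between dogs was 1.18 for the 30 chains kept and 0.525 for all genes kept. For these chains the SE of the trial difference ran from 0.134 for COL5A2 to 0.442 for COL22A1. How often a difference of 0.5 or 1 in the chains would be called was not tested. Between the groups of libraries, 0 of 30 chains and 4.27% of all genes differed in limma-voom, and 3 chains had an unadjusted p under 0.05, where 18.4% of all genes did.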

How the data were processed

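Frozen primary tumors gave total RNA, from which mRNA libraries were made with a stranded kit and sequenced in pairs. The authors trimmed reads with Cutadapt, mapped them to the canine build GSD_1.0 with STAR 2.7.0f and quantified genes with RSEM 1.3.1, and the deposited values are RSEM expected counts per gene, not normalized. Expected counts split a read that maps to several genes. Of the values, 3.07% were not whole, and all were rounded. Of 198 columns, 186 matched a labelled dog and 12 were not used. How RSEM treated strand is not given in the sources used here. Names and loci came from RefSeq genes of the same build, for all 39 chains. No 2 libraries were identical, and the highest rho between 2 libraries was 0.959.

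Genes were kept with filterByExpr of edgeR 4.0.16 (a minimum count of 10 and proportion of 0.5, with a large.n of 5) and scaled by TMM. The models were voom fits of limma 3.58.1 under R 4.3.3. Correlations used log2(CPM + 2). DESeq2 1.42.0, edgeR's quasi-likelihood fit, other scalings, subsets of dogs and left-out dogs were alternatives. Python 3.11.15, numpy 2.4.6, scipy 1.17.1, pandas 2.3.3 and matplotlib 3.10.9 were used for the rest. On simulated counts of 13422 genes, the fit of the GS-1 score called 100 of 100 genes with a slope of 0.5 and wrongly called 13. The median SD between dogs was 1.18 for the chains kept and 0.525 for all genes kept. For these chains the SE of the GS-1 slope ran from 0.063 for COL5A2 to 0.24 for COL22A1. How often a slope of 0.5 in the chains would be called was not tested. Dogs are separate animals, so p-values measure the spread between dogs.

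The chains, gene lists, pairs and scores were chosen with earlier results of these data known. Named with full values were COL1A1, COL1A2, COL3A1, the fixed pairs, and for each score the 5 called chains with the largest slope in each direction, and of other genes the listed ones and the 3 closest per chain with a symbol. Dogs far from a pair or at the end of a score were named after their values were seen. Columns hold no comparisons of the authors. Transcript lengths and sequences were not used here. Some of the closest genes are not reported here.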

Additional observations from a re-analysis of the deposited data

How the results depend on the processing

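Of 69 recomputed counts of chains called with a score or between trials, 59 stayed within 1.5 times the main count. Those between trials were 0 in the main fit and in every setting. The rule reads totals and not directions, so the mural count with edgeR (19 higher, 3 lower) stayed within it. The count with GS-1 (15) was 8 without the repeated separator libraries, 7 in COTC021 and 6 with all 5 scores in 1 fit, where 35.9%, 26.8% and 35.8% of all genes were called. Osteoblast (18) gave 9 with the repeated separator libraries alone and 10 in COTC022, where 15.1% and 22.4% of all genes were called. Endothelial (15) gave 9, 9 and 8 with those libraries, in COTC021 and with all 5 scores, against 11.6%, 13.9% and 7.64%. With those libraries mural (21) gave 13 and cartilage (19) gave 12, against 11.4% and 5.74%. Biosynthesis and receptor genes called in the same settings, against the same shares, were 14 and 17 with osteoblast, 8, 5 and 4 with endothelial, 5 with mural and 4 with cartilage. They were also 18 with osteoblast in COTC021 (23.9% of all genes), 9 with mural in COTC022 (18.7%), and with cartilage 12 without the repeated separator libraries (10.1%) and 6 in COTC022 (8.45%). These settings hold fewer dogs or more terms.

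Of 571 recomputed slopes of named chains, 490 kept direction and call, 70 lost the call, 2 gained it and 9 turned. The 9 were COL3A1 with GS-1 (0.0318 with edgeR, 0.0327 with DESeq2, 0.12 without repeated separator libraries), COL15A1 with GS-1 (-0.0037, all 5 scores), COL1A1 with osteoblast (-0.0066, COTC021), and, with endothelial, COL1A1 (-0.23 with repeated separator libraries, -0.25 with all 5 scores) and COL1A2 (-0.19 and -0.18). The cause was not tested. Of 88 recomputed pair correlations, 85 kept their call, and the others were COL5A1 with COL5A3 (0.196 in COTC022, 0.072 with repeated separator libraries) and COL12A1 with COL14A1 (0.0354 on residuals). The 85 include 11 with 0.5 CPM added in place of 2, which could not change, since rho uses ranks only. All 117 recomputed median levels moved by less than 1 SD between dogs. They came from the same dogs or a part of them, so this wide limit was a weak check of stability. The settings without DES and without 2 dogs were chosen after seeing the data. No paired analysis was possible because the trials share no dog. Chains with medians under 3 counts are limited by depth.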
